A study of Mus musculus with 5 samples.

Results

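The transcripts of the MYC and MAX network were examined in mouse pancreatic cancer cells sorted by autophagy flux. The network was taken as 10 genes of the 52459 in the deposited expression table, each found by its symbol in exactly 1 row. These were the MYC family genes Myc, Mycn and Mycl, the common partner Max, the MXD family genes Mxd1, Mxd3, Mxd4 and Mxi1, and the related genes Mnt and Mga. The cells were of the HY15549 mouse line with a C57BL/6 strain background, and all of them carried the GFP-LC3-RFP reporter, in which the ratio of green to red fluorescence falls as LC3 is delivered to lysosomes. They were grown as organoids, meaning clusters in a Matrigel basement membrane gel, and then dissociated and sorted on that ratio into autophagy-high cells (AThi, 2 libraries) and autophagy-low cells (ATlo, 3 libraries). Both groups thus shared the line, the reporter, the culture and the dissociation, and differed by the sorting gate. As a single line was used, other pancreatic tumours are not represented.

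MYC proteins are transcription factors of the basic helix-loop-helix leucine zipper class that bind DNA only as partners of MAX. MYC-MAX dimers bind the E-box CACGTG and raise transcription of genes for ribosome assembly, nucleotide and polyamine synthesis and cell cycle entry. The MXD proteins, MNT and MGA also pair with MAX. MXD and MNT dimers recruit SIN3 and histone deacetylases to the same E-boxes and oppose MYC, and MXD proteins are best known from cells that leave the cycle and differentiate.

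Several network genes carry the network's own binding motif, and the stretches that hold it are shown because the groups below are sorted by it. Promoter windows from 250 bases before to 50 bases after the RefSeq start (build GRCm38.p6) were found for 9 of the 10 members, and were not used for Myc. Of all 27025 genes with a window, expressed here or not, 8.09% held the E-box CACGTG, which reads the same on both strands. It occurred in the windows of 3 of the 9 members, namely Mxd4, Mnt and Max. Cdk4, which encodes the G1 cyclin-dependent kinase 4 and is a textbook MYC target, is shown beside them for its 4 matches. The sequences run 5′ to 3′ toward the start, with the E-box in capitals, from chr5:34187711-34187960 (minus strand), chr11:74830674-74830923 (plus strand), chr12:76962246-76962498 (minus strand) and chr10:127063285-127063534 (plus strand).
Mxd4: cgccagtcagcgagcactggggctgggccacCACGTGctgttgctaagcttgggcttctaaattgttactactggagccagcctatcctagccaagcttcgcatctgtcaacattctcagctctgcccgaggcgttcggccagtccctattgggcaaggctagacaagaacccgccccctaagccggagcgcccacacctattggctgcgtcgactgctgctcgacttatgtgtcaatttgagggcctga
Mnt: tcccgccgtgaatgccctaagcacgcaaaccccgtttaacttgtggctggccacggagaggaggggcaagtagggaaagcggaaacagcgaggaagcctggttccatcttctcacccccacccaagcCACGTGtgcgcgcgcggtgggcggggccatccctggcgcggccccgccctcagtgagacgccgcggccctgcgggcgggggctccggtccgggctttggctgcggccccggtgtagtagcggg
Max: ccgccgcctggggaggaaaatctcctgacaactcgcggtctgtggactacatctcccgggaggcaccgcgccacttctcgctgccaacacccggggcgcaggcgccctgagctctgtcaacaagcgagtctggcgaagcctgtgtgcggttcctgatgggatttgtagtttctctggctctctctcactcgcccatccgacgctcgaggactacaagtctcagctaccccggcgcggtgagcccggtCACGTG
Cdk4: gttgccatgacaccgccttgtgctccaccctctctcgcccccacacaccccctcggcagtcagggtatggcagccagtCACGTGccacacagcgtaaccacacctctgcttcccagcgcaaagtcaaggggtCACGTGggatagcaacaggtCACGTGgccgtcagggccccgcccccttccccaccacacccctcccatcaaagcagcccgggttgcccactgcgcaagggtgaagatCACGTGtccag
The E-box of Mxd4 began 219 bases before the start and that of Mnt 123 bases before it, while that of Max spanned the RefSeq start itself. In GENCODE M21, the annotation used for exon lengths, Max begins at 76962201 on the minus strand, downstream of that RefSeq start and of its E-box. The 4 matches of Cdk4 began 172, 118, 98 and 11 bases before its start. A match describes the letters of a window and does not show that a protein binds there.

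Levels are given in FPKM, fragments counted per kilobase of exon and per depth of the library, so they can be set side by side between genes. The depth implied by the steps of the low values was between 27580000 and 44940000 reads per library. In each member 3 reads would give at most 0.0459 FPKM, and this floor covers counting error only. The epithelial markers Krt8, Krt18, Krt19 and Cdh1 were abundant, with Krt19 between 1395 and 1842 FPKM, but Cldn4 was at 0.15 FPKM or less in all 5 libraries and Epcam was at 1.51 to 3.57 FPKM. The summed levels of the 6 fibroblast markers and of the 4 endothelial markers stayed at or under 0.18 FPKM in both groups. Those of the 4 endocrine markers stayed at or under 0.03 FPKM. Of the 4 acinar markers 3 were at 0 in all libraries, but Cela1 was at 10.2 to 12.9 FPKM in all 5. Of the 6 immune markers only Cd68, which also encodes a lysosomal membrane protein, exceeded 0.1 FPKM. Cd68 was at 8.68 and 14.7 FPKM in AThi, against 4.38, 4.31 and 4.55 FPKM in ATlo, so that the summed immune markers reached 8.78 and 14.9 FPKM in AThi and 4.35 to 4.67 FPKM in ATlo, and the part of these in the results was not tested. Ptprc, the pan-leukocyte marker, was at 0.04 to 0.05 FPKM.

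The comparison of AThi with ATlo asked which members of the network differ between cells of high and of low autophagy flux. Transcripts of Myc and Max did not differ beyond the spread between libraries, while Mxi1, Mxd4, Mxd1 and Mnt, the genes of 4 MAX-binding repressors, were 1.49 to 1.80 times as high in AThi as in ATlo. Mxd3, the remaining MXD gene, went the other way and averaged 0.345 ± 0.092 FPKM over the 2 AThi libraries (SD), against 2.77 ± 0.19 FPKM over the 3 ATlo libraries (SD). In such bulk libraries fewer cells with a transcript and less of it per cell cannot be told apart. Of the 10 members, 9 had a mean of at least 1 FPKM and entered the test, limma on log2(FPKM + 0.5) with Benjamini-Hochberg adjustment over all 11397 genes tested. Of these, 5 rose, 1 fell and 3 did not pass an adjusted p of 0.05. These counts stand against a wide background, since 51.6% of all genes tested passed, 22.2% higher and 29.4% lower in AThi. The library values of the groups did not overlap in 6 of the 9, against 70.3% of all genes tested. Of these, 5 lay with AThi above, against 31.9% of all genes tested, and 1 with AThi below, against 38.4%.

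**Figure D1:**
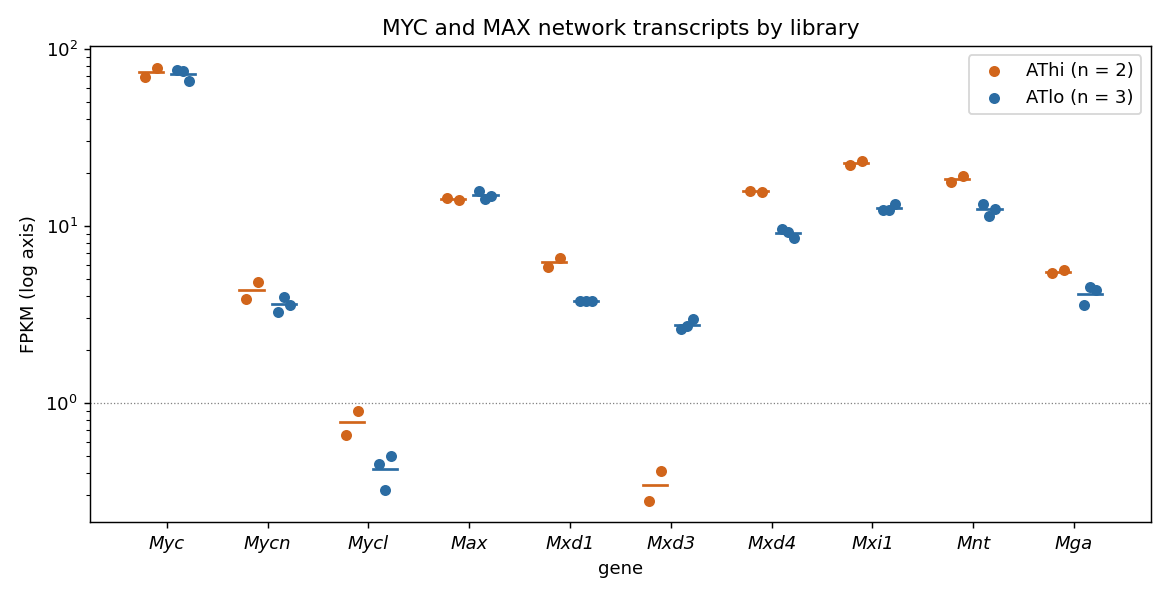
FPKM of the 10 network genes on a log axis, with a point for each AThi library (n = 2) and each ATlo library (n = 3) and a bar at each group mean; the dotted line marks 1 FPKM, the mean a gene needed to be tested. The Myc points of both groups intermingle, the AThi points of Mxd1, Mxd4, Mxi1 and Mnt lie above those of ATlo, and the AThi points of Mxd3 lie under 0.5 FPKM.

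Myc (chromosome 15, 61985391 to 61990374, plus strand, GRCm38) was the most abundant member in every library. It was at 69.6 and 78.5 FPKM in AThi replicates 1 and 2, against 76.2, 75.3 and 65.7 FPKM in ATlo replicates 1 to 3. The highest library was of AThi and the lowest of ATlo, but the groups overlapped. The log2 fold change was 0.03 ± 0.09 (SE), with a 95% interval of -0.18 to 0.25 and an adjusted p of 0.779. Within that interval the data leave room for a change of either sign. In its level Myc stood above 94.8% of the genes tested.

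Mycn, the paralogue best known from neural tumours, was at 3.87 and 4.79 FPKM in AThi against 3.25, 3.96 and 3.58 FPKM in ATlo. The groups overlapped, as AThi replicate 1 lay below ATlo replicate 2. Its log2 fold change of 0.23 ± 0.12 (SE) had a 95% interval of -0.04 to 0.51 and an adjusted p of 0.134. Its promoter window held E2F motifs (TTTGGCGC at 183 and 168 bases before the start), as do 2.26% of all windows for the E2F letters searched. Mycl, the paralogue first found in lung cancer, was lowest in the family, at 0.66 and 0.90 FPKM in AThi against 0.45, 0.32 and 0.50 FPKM in ATlo. The AThi libraries were the higher ones without overlap, yet its mean of 0.566 FPKM kept it out of the test. With no filter on low values it had a log2 fold change of 0.47 and an adjusted p of 0.0891. Myc accounted for 93.6 ± 0.46% of the summed FPKM of the 3 family genes in AThi (SD, n = 2) and for 94.7 ± 0.61% in ATlo (SD, n = 3).

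Max, whose protein is the shared dimer partner of the other members, was at 14.4 and 14.0 FPKM in AThi against 15.7, 14.2 and 14.7 FPKM in ATlo. AThi replicate 1 lay within the ATlo range and replicate 2 just below it. The log2 fold change was -0.06 ± 0.07 (SE), the 95% interval -0.22 to 0.10 and the adjusted p 0.455. Max was therefore at 0.192 ± 0.020 of the Myc level in AThi (SD, n = 2) and at 0.206 ± 0.017 in ATlo (SD, n = 3).

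Mxi1 (also called Mxd2, chromosome 19, 53310518 to 53375810, plus strand) is a known target of HIF and FOXO3. It showed the largest rise on the log2 scale among the 9 tested members. Its level was 22.2 and 23.3 FPKM in AThi, against 12.3, 12.3 and 13.2 FPKM in ATlo. Both AThi libraries lay far above all 3 ATlo libraries. The log2 fold change was 0.83 ± 0.07 (SE), with an adjusted p of 0.000143, and exceeded that of 96.0% of all genes tested. Foxo3 itself, chosen after its values were seen, was at 12.6 and 13.0 FPKM in AThi against 7.64, 7.22 and 7.73 FPKM in ATlo, which is 0.73 ± 0.06 (SE) in log2 (adjusted p 0.000231). A FOXO core motif, GTAAACA on either strand, began 231 bases before one of the annotated Mxi1 starts. Of all genes with a promoter window, 4.05% hold it in at least 1 window. The part of Foxo3 or of HIF in the Mxi1 difference was not tested.

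Mxd4 (chromosome 5, 34173883 to 34187720, minus strand), an antagonist known from differentiating cells, was at 15.8 and 15.5 FPKM in AThi, against 9.54, 9.22 and 8.49 FPKM in ATlo. The AThi libraries differed from each other by less than the ATlo libraries did, and no value of one group came near the other. Its log2 fold change was 0.75 ± 0.07 (SE), with an adjusted p of 0.000277. Mxd1, the founding antagonist, known from maturing blood and skin cells, was less abundant, at 5.83 and 6.61 FPKM in AThi against 3.76, 3.77 and 3.78 FPKM in ATlo. The ATlo libraries were almost equal, and both AThi libraries lay above them. Mxd1 rose by 0.65 ± 0.08 (SE) on the log2 scale, with an adjusted p of 0.00079. Mxi1, Mxd4 and Mxd1 remained past the threshold whichever of the 5 libraries was removed.

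Mxd3 (chromosome 13, 55325168 to 55329823, minus strand) is the family member known for transcription in S phase of dividing cells rather than in cells that leave the cycle. It was at 0.28 and 0.41 FPKM in AThi, against 2.62, 2.70 and 2.98 FPKM in ATlo. Every AThi library was thus far below every ATlo library, and the ATlo mean was 8.02 times the AThi mean. On the log2(FPKM + 0.5) scale, which understates changes of such low values, the difference was -1.95 ± 0.13 (SE), with an adjusted p of 8.44e-05, and 1.23% of all genes tested had a lower one. At the implied depths and an exon length of 2369 bases these levels correspond to about 18.3 and 43.7 reads in AThi, against 261, 230 and 277 reads in ATlo. Mxd3 passed the filter of 1 FPKM through its ATlo values alone, so a gene with such AThi values could enter the test only by differing.

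Mxd3 shares exon sequence with Prelid1, a gene of mitochondrial lipid transport on the opposite strand. Prelid1, chosen after its values were seen, was at 46.7 and 50.8 FPKM in AThi against 69.1, 74.5 and 69.6 FPKM in ATlo, a log2 fold change of -0.54 ± 0.07 (SE). The libraries were made with a stranded kit, but the strand setting of the counting is not given in the sources used here. Without strand the reads of the shared stretch cannot be told apart. The same limit holds for Mxd4 and Mxi1, which share exon sequence with Gm42846 and Gm10197 on the opposite strand. These genes were chosen after their values were seen. Gm42846 was at 0 FPKM in all 5 libraries. Gm10197 was at 0 FPKM in both AThi libraries and at 0.24, 0 and 0.51 FPKM in ATlo. The cell division genes, like Mxd3, were far lower in AThi. All 18 tested G2/M genes fell (median -3.26 on the log2 scale), as did all 16 tested S phase genes (median -1.56), and their part in the Mxd3 difference was not tested.

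Mnt, a broadly expressed antagonist present in cycling and resting cells alike, was at 17.8 and 19.2 FPKM in AThi, against 13.3, 11.4 and 12.5 FPKM in ATlo. The groups did not overlap, with a gap wider than the spread within AThi. It rose by 0.56 ± 0.08 (SE) on the log2 scale, with an adjusted p of 0.00147, and stayed past the threshold whichever library was removed. Mga, a very large protein that joins a MAX-binding region to a T-box domain and works in a Polycomb complex, was at 5.39 and 5.65 FPKM in AThi, against 3.57, 4.49 and 4.33 FPKM in ATlo. The AThi libraries were again the higher ones. Its rise of 0.38 ± 0.11 (SE) passed with an adjusted p of 0.0201, but was lost with no filter on low values (adjusted p 0.0665), without AThi replicate 1 (adjusted p 0.0665) and without AThi replicate 2 (adjusted p 0.104).

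**Figure D2:**
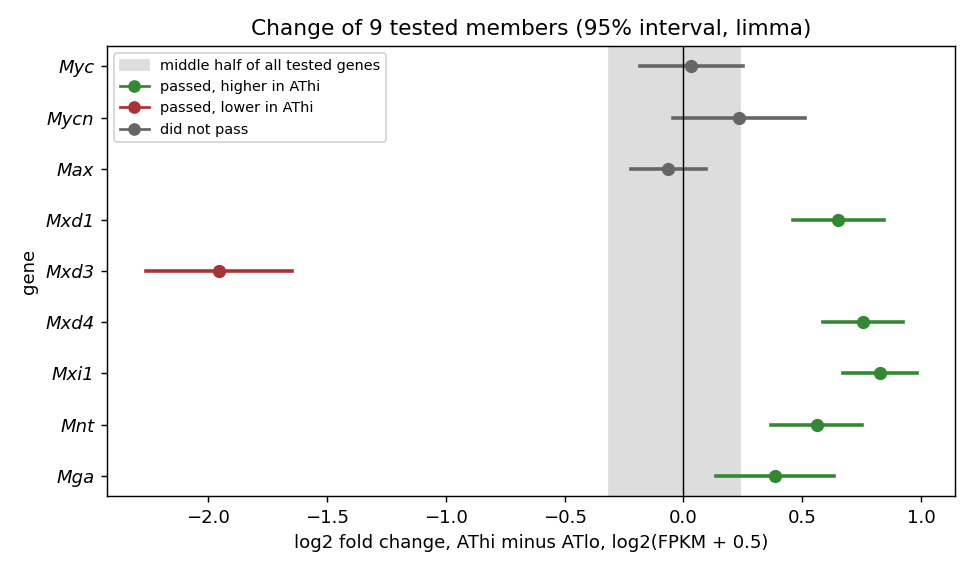
Log2 fold change, AThi minus ATlo on the log2(FPKM + 0.5) scale, of the 9 tested members with 95% intervals from limma; the grey band spans the interquartile range of all 11397 genes tested, from -0.31 to 0.24. Mxi1, Mxd4, Mxd1 and Mnt lie to the right of the band with their whole interval, Mxd3 lies far to the left, and the intervals of Myc, Mycn and Max include 0.

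The order of levels differed between the populations below Myc. In AThi, Mxi1 at 22.7 FPKM was followed by Mnt at 18.5, Mxd4 at 15.7 and Max at 14.2 FPKM, and then by Mxd1, Mga, Mycn, Mycl and Mxd3. No 2 neighbours in that order overlapped between the 2 AThi libraries. In ATlo, Max at 14.9 FPKM came first after Myc, followed by Mxi1 at 12.6, Mnt at 12.4 and Mxd4 at 9.08 FPKM, and then by Mga, Mxd1, Mycn, Mxd3 and Mycl. There the ranges of Mxi1 and Mnt overlapped, as did those of Mga, Mxd1 and Mycn. Max thus stood above each of the MXD genes and Mnt in every ATlo library and below Mxi1, Mnt and Mxd4 in both AThi libraries.

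The summed FPKM of the 4 MXD genes and Mnt came to 61.9 and 65.0 in AThi, against 41.5, 39.4 and 41.0 in ATlo. Set against Myc in the same library, the sum was at 0.888 and 0.828 of the Myc level in AThi, against 0.544, 0.523 and 0.623 in ATlo. Both AThi ratios lay above all 3 ATlo ratios. The mean ratio was 0.858 ± 0.043 in AThi (SD, n = 2) and 0.564 ± 0.053 in ATlo (SD, n = 3), or 1.52 times as high in AThi, with no test, since the genes of the sum were chosen with earlier results known. The makeup of the sum differed as well. Mxd3 contributed 0.765 ± 0.18% of the summed MXD family FPKM in AThi (SD, n = 2) and 9.80 ± 0.61% in ATlo (SD, n = 3), while Mxi1 contributed 50.6 ± 0.30% in AThi (SD, n = 2) and 44.6 ± 1.56% in ATlo (SD, n = 3). These are transcript levels, and protein amounts were not measured.

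**Figure D3:**
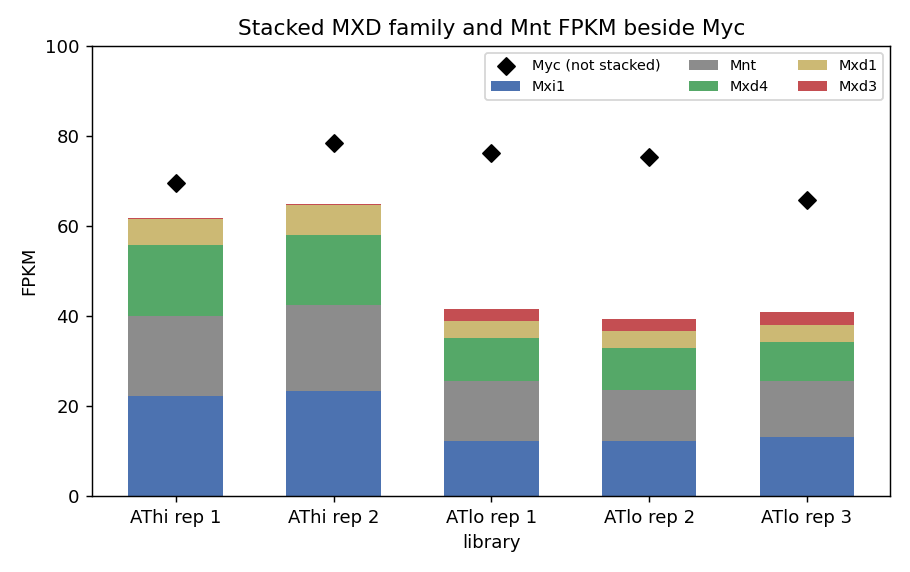
Stacked FPKM of Mxi1, Mnt, Mxd4, Mxd1 and Mxd3 in each library, AThi on the left and ATlo on the right, with the Myc level of the same library as a diamond. The stacks reach 61.9 and 65.0 FPKM in AThi and 39.4 to 41.5 FPKM in ATlo, while the diamonds lie between 65.7 and 78.5 FPKM in all 5 libraries.

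Transcripts of known MYC-activated genes were mostly lower in AThi. Of 40 such genes, all of them tested, 32 fell, 1 rose and 7 missed the threshold, and the median log2 fold change was -0.64. Over all genes tested, 29.4% fell and the median was -0.03. The list was put together from textbook targets with earlier results of these data known, and many of its genes also serve cell growth and the cell cycle, which moved with the same groups. Cad, the multienzyme that starts pyrimidine synthesis, was at 5.42 and 5.09 FPKM in AThi, against 13.1, 14.1 and 15.0 FPKM in ATlo, a log2 fold change of -1.34 ± 0.08 (SE). Srm, the spermidine synthase gene, changed by -1.32 ± 0.06 (SE), and Dnph1, a nucleotide hydrolase gene first found as a MYC-responsive transcript, by -1.28 ± 0.09 (SE).

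Odc1, which encodes ornithine decarboxylase, the rate-limiting enzyme of polyamine synthesis, was at 17.0 and 17.4 FPKM in AThi, against 29.5, 37.1 and 34.1 FPKM in ATlo. No AThi library reached the ATlo range, and the log2 fold change was -0.94 ± 0.10 (SE), with an adjusted p of 0.000413. Ncl, the gene of the nucleolar protein nucleolin, was at 68.5 and 63.8 FPKM in AThi, against 97.6, 107 and 105 FPKM in ATlo, which is -0.63 ± 0.07 (SE) in log2. Npm1, the nucleophosmin gene, changed by -0.34 ± 0.09 (SE), with an adjusted p of 0.0191. The call of Npm1 was lost with no filter on low values (adjusted p 0.0658) and without AThi replicate 2, ATlo replicate 2 or ATlo replicate 3 (adjusted p 0.116, 0.0534 and 0.0513). Ccnd2, the cyclin D2 gene, was the 1 member of the list that rose, at 121 and 104 FPKM in AThi against 62.5, 58.0 and 53.8 FPKM in ATlo. In the list, 29 of the 32 falls were called whichever library was removed.

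The E-box was frequent in the promoters of MYC-activated genes, and genes with and without it fell. Of the MYC-activated genes, 32 had a promoter window, and 13 of these windows held CACGTG, or 40.6%, against 8.09% of all genes with a window. Of the 13 genes with the motif 10 fell and the median log2 fold change was -0.54, while of the 19 without it 16 fell and the median was -0.64. Over all genes tested that had a promoter window, 30.8% of the 1044 with an E-box and 30.7% of the 7543 without one fell. The 8.09% also counts genes that were not tested. Cdk4, with its 4 E-boxes, was chosen after its values were seen. It was at 57.8 and 52.8 FPKM in AThi, against 76.6, 78.3 and 77.6 FPKM in ATlo, which is -0.48 ± 0.07 (SE) in log2 (adjusted p 0.00112). The windows cover 300 bases around a start, and E-boxes elsewhere were not searched.

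Genes known to be repressed by MYC included more rises than falls. Of 17 such genes 15 were tested, and 7 rose, 2 fell and 6 missed the threshold. Their median log2 fold change was 0.29, and the share called higher, 46.7%, stands against 22.2% rising over all genes tested. Of these calls, 2 of the 7 rises and 1 of the 2 falls held whichever library was removed. Ndrg1, a stress-responsive growth inhibitor gene that also answers to hypoxia, was at 142 and 164 FPKM in AThi, against 74.4, 64.4 and 58.6 FPKM in ATlo, a log2 fold change of 1.21 ± 0.12 (SE). Ddit3, which encodes the stress factor CHOP, rose by 1.43 ± 0.30 (SE), and Txnip, the thioredoxin-interacting protein gene, by 0.99 ± 0.09 (SE). Itgb1, the integrin beta 1 gene, and Ndrg2 fell, with log2 fold changes of -0.32 and -0.25.

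The CDK inhibitor gene Cdkn1a was at 15.6 and 27.5 FPKM in AThi, against 8.01, 11.9 and 11.9 FPKM in ATlo, a log2 fold change of 0.96 ± 0.25 (SE) with an adjusted p of 0.0177. The related Cdkn2b, a classic target of MYC repression through MIZ1, rose by 0.42 ± 0.10 (SE), with an adjusted p of 0.0143. The groups did not overlap in either gene, but both calls failed with no low-value filter (adjusted p 0.079 and 0.0528), that of Cdkn1a also with robust moderation (adjusted p 0.0602) and without AThi replicate 2 (0.56 on the log2 scale, adjusted p 0.103), and that of Cdkn2b without AThi replicate 1 (adjusted p 0.0947). The list held 3 rises with no filter and 4 without AThi replicate 2, where the calls of Ddit3 (adjusted p 0.0592) and Ndrg2 (adjusted p 0.0935) were lost too. Ndrg2 was lost without ATlo replicate 2 as well (adjusted p 0.0787).

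**Figure D4:**
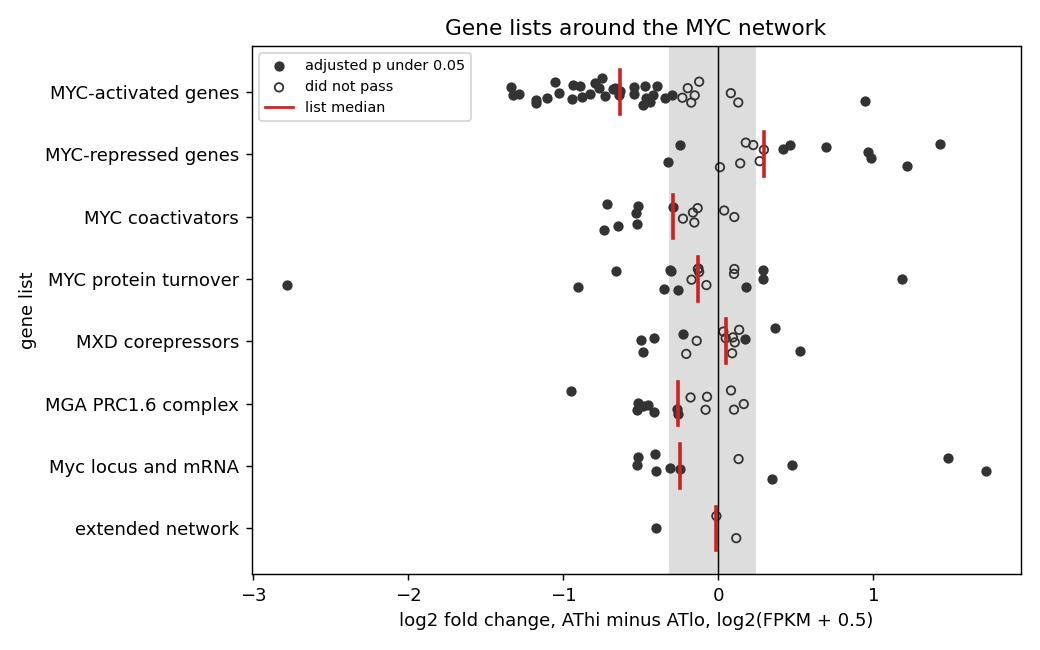
Log2 fold change, AThi minus ATlo on the log2(FPKM + 0.5) scale, of every tested gene in 8 lists around the network, filled where the adjusted p was under 0.05; red ticks are list medians and the grey band is the interquartile range of all genes tested. The median of the MYC-activated genes, -0.64, lies left of the band and that of the MYC-repressed genes, 0.29, to its right.

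Among 13 coactivator genes through which MYC acts on chromatin and on elongating polymerase, 7 fell and 0 rose, and the median over all 13 was -0.29. The falls make up 53.8%, against 29.4% of all genes tested, and 6 of them held whichever library was removed. The falls were led by Actl6a at -0.74 ± 0.06 (SE), Ruvbl1 at -0.72 ± 0.06 (SE) and Ruvbl2 at -0.65 ± 0.06 (SE), which encode an actin-related subunit and both ATPases shared by chromatin remodelling complexes. Ruvbl1 was at 8.17 and 8.70 FPKM in AThi, against 14.1, 14.1 and 14.3 FPKM in ATlo.

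Of 18 genes that govern MYC protein turnover, 4 rose and 7 fell, and the median was -0.13. The 22.2% that rose equal the share over all genes tested, and the 38.9% that fell stand against 29.4%. Fbxw7, the ubiquitin ligase subunit that marks phosphorylated MYC for degradation, was at 5.67 and 5.49 FPKM in AThi against 6.32, 5.90 and 6.16 FPKM in ATlo, and its difference of -0.12 ± 0.07 (SE) did not pass (adjusted p 0.174). It was named after its values were seen. Aurka, a mitotic kinase that also shields MYC family proteins, changed by -2.79 ± 0.15 (SE), Skp2, another ligase subunit, by -0.91 ± 0.11 (SE), and Set, a phosphatase inhibitor gene, by -0.66 ± 0.10 (SE). Fbxo32, the ligase subunit atrogin-1, rose by 1.18 ± 0.14 (SE), Gsk3b, the kinase that primes MYC for FBXW7, by 0.29 ± 0.06 (SE), and Fbxo28 by 0.29 ± 0.07 (SE). The call of Fbxo28 was lost without AThi replicate 1 (adjusted p 0.0821), and 2 of the 4 rises and 4 of the 7 falls were called whichever library was removed.

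Genes of the corepressors used by MXD and MNT were called in shares near those of all genes tested. Of 15 genes of the SIN3 and histone deacetylase complex, 3 rose and 4 fell, and the median was 0.05. These are 20.0% and 26.7%, against 22.2% and 29.4% of all genes tested. The scaffold gene Sin3a was at 17.2 and 17.0 FPKM in AThi against 16.0, 15.7 and 16.4 FPKM in ATlo, and Sin3b was at 13.8 and 15.1 FPKM against 14.6, 14.4 and 13.5 FPKM. These 2 were picked after their values were seen and did not pass, with adjusted p-values of 0.213 and 0.722 and 95% intervals of -0.04 to 0.23 and -0.13 to 0.20. The deacetylase genes Hdac1 and Hdac2 fell, with log2 fold changes of -0.49 ± 0.07 and -0.41 ± 0.08 (SE), as did the histone chaperone gene Rbbp7 at -0.50 ± 0.07 (SE). Arid4a, an RB-binding subunit, rose by 0.53 ± 0.07 (SE). The rises of Arid4b and Suds3, at 0.37 and 0.17, were lost without AThi replicate 1 (adjusted p 0.0604 and 0.135), AThi replicate 2 (adjusted p 0.0793 and 0.138) or ATlo replicate 2 (adjusted p 0.0576 and 0.116) and with no filter, so that 1 rise was left in each of these fits. Suds3, at an adjusted p of 0.0494, was also lost without ATlo replicate 1 or 3 (adjusted p 0.0824 and 0.114), with median-ratio scaling (adjusted p 0.0504), with robust moderation (adjusted p 0.0542) and with no trend (adjusted p 0.0592).

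Among 14 genes of PRC1.6, the Polycomb complex of MGA, 8 fell and 0 rose, with a median of -0.26. The falls make up 57.1%, against 29.4% of all genes tested. Tfdp1, the dimerization partner of E2F factors, was at 17.4 and 16.5 FPKM in AThi, against 31.3, 33.2 and 35.5 FPKM in ATlo, a log2 fold change of -0.95 ± 0.07 (SE). L3mbtl2, which binds histones, changed by -0.53 ± 0.07 (SE) and the WD-repeat gene Wdr5, which is also among the coactivators, by -0.52 ± 0.07 (SE). Without AThi replicate 2 the falls numbered 5 of 14, nearer to the share over all genes.

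The parallel branch of the network, in which MLX takes the place of MAX, showed 1 fall among 3 genes. That is 33.3%, near the 29.4% over all genes tested. Mlx was at 23.5 and 23.3 FPKM in AThi, against 32.2, 30.8 and 30.4 FPKM in ATlo, a log2 fold change of -0.41 ± 0.06 (SE) with an adjusted p of 0.00153. Both AThi libraries lay below all 3 ATlo libraries. Mlxip, which encodes the glucose sensor MondoA, was at 7.38 and 7.17 FPKM in AThi against 7.01, 7.49 and 7.54 FPKM in ATlo, and its difference of -0.01 ± 0.07 (SE) had a 95% interval of -0.17 to 0.15. Mlxipl, which encodes the carbohydrate-responsive factor ChREBP, was at 0.99 to 1.21 FPKM in all libraries and did not pass. The E-box windows of this branch were those of Mlx and Mlxipl, 2 of 3 genes.

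Among 13 genes of the Myc locus and of factors that act on Myc transcription or RNA, 11 were tested, and 4 rose and 6 fell. These are 36.4% and 54.5%, against 22.2% and 29.4% of all genes tested, and 4 of the rises and 4 of the falls held whichever library was removed. Pvt1, the noncoding gene beside Myc, did not pass, at 0.98 and 1.23 FPKM in AThi against 0.88, 1.05 and 0.96 FPKM in ATlo. The RNA-binding gene Zfp36, whose protein speeds decay of AU-rich transcripts, was at 187 and 280.2 FPKM in AThi, against 78.4, 90.6 and 46.2 FPKM in ATlo, a log2 fold change of 1.72 ± 0.29 (SE). Its relative Zfp36l1 rose by 1.48 ± 0.08 (SE), and Tcf7l2, the Wnt pathway factor, by 0.47 ± 0.10 (SE). Hnrnpk, Fubp1 and Cnbp, which are known to bind near Myc's promoter and promote its transcription, changed by -0.53 ± 0.09, -0.52 ± 0.09 and -0.41 ± 0.07 (SE).

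Myc is itself an immediate-early gene, induced within minutes by growth signals and by cell handling. Of 20 genes of the immediate-early list, 15 rose and 3 fell, and the median log2 fold change was 1.52. These are 75% and 15%, against 22.2% and 29.4% of all genes tested. With no filter on low values the list held 12 rises and 3 falls. The falls were those of Fosl1 and of the heat-shock protein genes Hsph1 and Hspa8, which were put in the same list. The summed level of all 20 genes of the list was 4485 and 6970 FPKM in AThi, against 2202, 2700 and 1747 FPKM in ATlo, without overlap. Egr2, a zinc-finger factor of this class, was at 36.2 and 46.0 FPKM in AThi, against 9.61, 6.78 and 6.87 FPKM in ATlo. Myc, Mycn and Max did not pass in the same libraries, and the part of the immediate-early genes in the levels of the network was not tested.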

How the data were processed

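RNA was sequenced from 2 AThi and 3 ATlo libraries. The authors deposited FPKM, given to 2 decimals, in a single table that holds all 5 libraries. Per the submitters' processing notes, tools included STAR, featureCounts, bcl2fastq and DESeq2, with builds GRCm38 and mm10. Not given in the sources used here were the annotation release, the strand setting and the FPKM formula. The labels do not say whether replicates were independent cultures. The p-values therefore cover only library-to-library spread, which may be technical.

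The fit used limma 3.58.1 in R 4.3.3 on log2(FPKM + 0.5) for genes averaging 1 FPKM or more, with a single group term and a trended eBayes prior. Tests were two-sided, on 3 residual and 3.89 prior degrees of freedom. Fold changes are AThi minus ATlo on that scale. Genes were called at 0.05 after Benjamini-Hochberg adjustment. The fit was tested on simulated data. Coordinates, exon lengths and overlaps came from GENCODE M21 of GRCm38, and promoters from RefSeq. Implied depth came from the FPKM steps of single-exon genes of up to 200 bases, where 100% of 309 to 399 low values per library were whole within 0.1. Motifs searched on both strands, besides those given in the text, were the CLEAR element, which contains the E-box and was in no member's window, E2F (TTTCCCGC, TTTGGCGC, TTTCGCGC, TTTGCCGC), CHR (TTTGAA) and CCAAT.

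The members and lists were chosen with earlier results of these data known. In each list, up to 3 of the largest rises and falls with a mean of at least 2 FPKM were named, plus 9 set genes. Further genes, among them Cdk4 and Foxo3, were named after their values were seen. A few results are not reported here. Alternatives covered pseudocount, filter, scaling, moderation, a replicate block and each library left out.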

Additional observations from a re-analysis of the deposited data

How the results depend on the processing

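Over 14 alternative fits, 116 of 122 values of the tested members kept their direction and side of the threshold, 3 lost the call (all of them Mga) and 3 changed sign (all of them Myc, never past the threshold). Myc had a log2 fold change of -0.0345 with the replicate block and between -0.0527 and 0.1188 with a library left out. Mlxip changed sign at 0.0227 under TPM scaling, 0.0052 with the replicate block and between -0.044 and 0.0068 with a library left out, also without passing. With a minimum mean of 5 FPKM, 1683 genes were called higher in AThi against 2529, and 3 members were called higher and 0 lower, because Mxd1, Mxd3, Mycn and Mga fell below that filter. Over all genes, 4307 to 5723 were called with a library left out. TPM scaling moved the median of all genes by 0.03.

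The replicate numbers are shared by 2 pairs of libraries, and the codes in the titles begin with the same digits within each of these pairs, but no label says that either marks a common culture or day. Deviations from the group means correlated at 0.2 and 0.297 within same-numbered pairs and between -0.297 and 0.0599 in the other pairs. With 2 AThi libraries these deviations mirror each other, so the values are not independent. With the replicate block 5909 genes were called, against 5884 without it, and 5 members rose and 1 fell in either fit. Replicate 3 holds only an ATlo library, so with the block that library adds nothing to the group difference. The fold changes therefore equal those without ATlo replicate 3, such as -0.0345 for Myc and 0.8609 for Mxi1. These 2 alternatives are not separate checks of the fold changes. The MYC-activated list then held 2 rises and the PRC1.6 list 1, and Suds3 had an adjusted p of 0.1235. FPKM hold no counts, so depth limits Mxd3 and Mycl most.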

Other observations

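The genes nearest to each member past the threshold were found by the root mean square difference of their log2 deviations from the gene mean over the 5 libraries. Kif21b, a kinesin motor gene, and Dirc2 lay nearest to Mxd1, at 0.0128 and 0.0269. Map3k1, a kinase gene of the JNK pathway, was at 0.0239 from Mxi1, next to Gm7694 at 0.0225. Foxred2 and Acad10 were nearest to Mxd4, at 0.0275 and 0.0287, and Lancl1 and Zfp551 to Mnt, at 0.0143 and 0.0147. Iqcb1 and the super elongation complex scaffold gene Aff4 were nearest to Mga, at 0.0268 and 0.029. Between 12 and 33 genes lay within 0.05 of each of these 5 members, so such nearness picks out no small group. For Mxd3 0 genes lay within 0.05, and its nearest were Fbln1, which encodes the matrix protein fibulin-1, at 0.0565 and BC030867 at 0.08. Few genes changed as much, as 1.23% of all genes tested had a lower log2 fold change. The fixed cutoff therefore cannot tell an unusual pattern from a large change. Fbln1 was at 0.97 and 1.40 FPKM in AThi, against 5.40, 5.95 and 6.26 FPKM in ATlo.

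Sox9 and Onecut2, factors of the pancreatic duct, were higher in AThi beside the MXD genes. Sox9, a duct and progenitor factor, was at 34.1 and 39.8 FPKM in AThi, against 18.3, 20.4 and 15.7 FPKM in ATlo, a log2 fold change of 1.01 ± 0.12 (SE). Onecut2 rose by 0.93 ± 0.13 (SE), while Muc1 did not pass. The keratin gene Krt7 fell, at 71.2 and 83.5 FPKM in AThi against 125, 131 and 113 FPKM in ATlo.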
